A study of Arabidopsis thaliana with 26 samples.

Results

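Cytochrome P450 genes were followed in cultured Arabidopsis thaliana cells given abscisic acid (ABA), salicylic acid (SA), jasmonate (JA) or pairs of them. The members are the probe sets that the array annotation matches to 1 gene with a symbol made of CYP, 2 or 3 digits and a letter. This gave 23 probe sets of 22746, 1 for each of 23 genes, out of 13356 genes that have a probe set of their own. Of these genes 19 belong to the CYP71B subfamily, and CYP51G2, CYP78A9, CYP79A2 and CYP84A4 are the only members of theirs. A further 213 genes whose RefSeq symbol has this form are not analysed here, nor is 1 probe set that lists more than 1 P450 gene.

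Cytochrome P450s are haem enzymes that insert oxygen into small molecules, with electrons passed to them by a reductase. Plants hold large families of them, which make and break down hormones, phenylpropanoids, defence compounds, sterols and lipids. The CYP71 clan is the branch that expanded most in flowering plants, largely by tandem duplication, and CYP71B genes often lie side by side. None of 66 genes listed for hormone, phenylpropanoid, glucosinolate, lipid and sterol P450s and their electron donors had a matched probe set, so jasmonate synthesis and ABA breakdown are not described here.

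The cells were T87, a single suspension line grown in liquid medium under a light and dark cycle, so nothing below bears on an organ or a whole plant. The treated groups received ABA at 25 µM, SA at 300 µM, methyl jasmonate at 100 µM (named JA in the labels), ABA with SA, or ABA with JA, and the control group received ethanol (EtOH) at 0.6%, each for 3 h or 24 h. There were 12 groups and 26 arrays, 2 to a group but 3 for ABA alone at either time. No label says that replicates were separate cultures, so the p-values cover just the scatter from array to array, and this may be technical. The number of arrays limits every value.

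On the 4 arrays of hormone pairs at 3 h, the title names one pair and the source name the other. They are grouped by title here, and the value with the other grouping is given for CYP84A4 and wherever it ends a call. Replicates 2 and 3 of ABA at 3 h differed by less than the noise between other replicates, with an SD of their difference of 0.158 log2 units against 0.343 to 0.735 for the other pairs, and were counted as 1 sample. A time axis was also drawn from 3042 probe sets without the P450s, scaled so that the SA arrays average 0 at 3 h and 1 at 24 h. The EtOH arrays at 24 h fell at 0.902 and 0.967 on it, and those at 3 h at 0.0795 and 0.145. Arrays of ABA alone lay at 0.389 to 0.486 at 24 h and 0.457 to 0.574 at 3 h, and at 24 h the first replicates of JA and ABA+JA fell at 0.0822 and 0.0994. Combined arrays at 3 h lay at -0.17 to -0.119. The part of this placement in the results below was not tested.

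Values are log2 signals after RMA, a normalization that gives 1 value per probe set and array, and a gene was called when its adjusted p in limma, over all probe sets, was under 0.05. Of the 23 genes, 8 were called in 1 or more of 22 comparisons and 15 in none, where 50.9% of all probe sets were called in 1 or more. The mean signal of 16 genes lay below 3.38, the lower quartile of the mean signals of all probe sets, and 2 of those 16 (CYP71B16 and CYP71B34) were called in a comparison, against 18.7% of all probe sets below that level. The table holds no detection calls, so a low signal does not show that a gene was silent, and a change in a dim probe set is compressed. The spread within groups ran from an SD of 0.09 for CYP71B37 to 0.99 for CYP71B23.

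Against EtOH, ABA alone at 24 h called 4 of 23 P450 genes (17.4%), all higher, where 17.5% of all probe sets were called and 6.75% were called higher. ABA alone at 3 h called 1, which was lower, against 14.1% of all probe sets called and 8.38% lower. ABA+SA and ABA+JA at 3 h called 1 gene each, against 15.6% and 22.4% of all probe sets. At 24 h ABA+JA called 2 genes, both higher (8.7% of all probe sets called, 3.12% higher), and ABA+SA called none (3.96%). At an unadjusted p under 0.05 ABA+SA at 24 h had 4 P450 genes (17.4%), and 12.3% of all probe sets. Counted in either direction, none of the shares of P450 genes called against EtOH lies above the share of all probe sets called. The shares called higher with ABA and ABA+JA at 24 h do, on counts of 4 and 2 genes. The median change of the 23 genes stood between -0.11 and 0.22 log2 units in the 10 comparisons with EtOH, and that of all probe sets between -0.03 and 0.06. All comparisons at one time share the same 2 EtOH arrays.

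**Figure D1:**
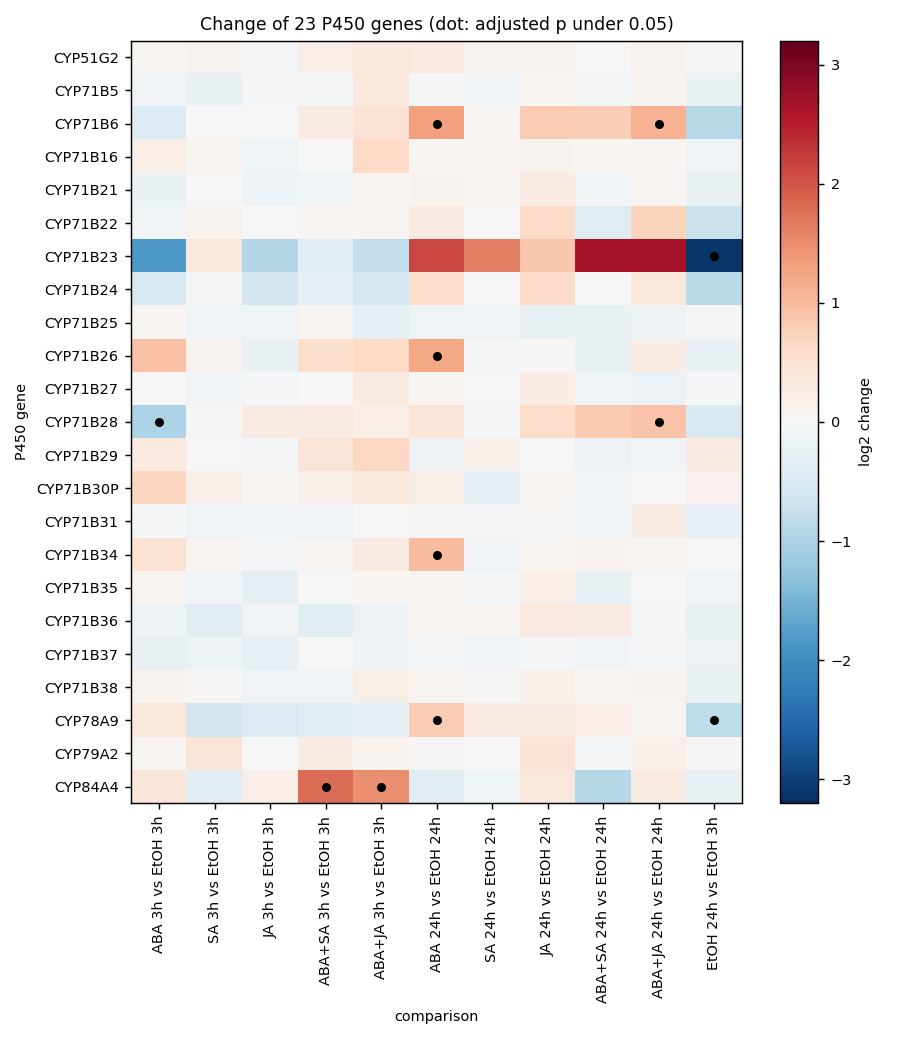
Log2 change of the 23 P450 genes (rows) in 10 comparisons of hormones with EtOH at the same time and in EtOH at 24 h against EtOH at 3 h (columns). Colour is the log2 change and a black dot marks an adjusted p under 0.05. CYP84A4 carries dots with both pairs at 3 h, and CYP71B23 has the lowest value, -3.11, between the EtOH times.

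CYP84A4 (AT5G04330) was called in 6 comparisons, all with hormone pairs at 3 h. Its product hydroxylates a phenylpropanoid aldehyde on the way to arabidopyrones, and it is related to the ferulate hydroxylase of lignin synthesis. At 3 h it read 7.06 and 7.79 on the arrays titled ABA+SA and 7.12 and 7.14 on those titled ABA+JA. It read 5.78, 6.30 and 6.27 with ABA alone, 5.67 and 4.96 with SA alone, 6.06 and 5.64 with JA alone, and 5.96 and 5.33 with EtOH. All 4 combined arrays thus read above the other 9 arrays at 3 h, whichever label they are grouped by.

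CYP84A4 rose by 1.78 ± 0.32 (SE) log2 units with ABA+SA against EtOH (limma adjusted p = 0.00109), and by 1.49 ± 0.32 with ABA+JA (adjusted p = 0.00301). Grouped by source name, these 2 values change places, as do the 2 against ABA alone below. It was also higher with ABA+SA than with SA alone (2.11 ± 0.32, adjusted p = 0.000364) and ABA alone (1.39 ± 0.32, adjusted p = 0.00679). It was higher with ABA+JA than with JA alone (1.28 ± 0.32, adjusted p = 0.00917) and ABA alone (1.10 ± 0.32, adjusted p = 0.0218). By source name the difference from SA was 1.81 (adjusted p = 0.000784) and that from JA 1.58 (adjusted p = 0.00286), and all 6 calls were kept. No single hormone gave a call at 3 h: its change was 0.39 ± 0.32 with ABA (adjusted p = 0.452), -0.33 ± 0.32 with SA and 0.21 ± 0.32 with JA (adjusted p = 1 for both).

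The calls for ABA+SA against EtOH and against SA were kept with each array left out in turn. The call for ABA+JA against EtOH was lost without EtOH replicate 2 (adjusted p = 0.0521). Both calls against ABA alone were lost without ABA replicate 1 (adjusted p = 0.0985 for ABA+SA and 0.184 for ABA+JA) and in a fit of only the groups compared (0.0696 and 0.0781). The first was lost too without ABA+SA replicate 2 (0.0997), the second without ABA+JA replicate 1 or 2 (0.0842 and 0.083), and the call against JA without ABA+JA replicate 1 or JA replicate 2 (0.0504 and 0.0991).

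At 24 h CYP84A4 read 4.86 and 4.18 with ABA+SA, 5.67 and 5.76 with ABA+JA, 5.0, 5.04 and 5.20 with ABA alone, and 5.78 and 5.08 with EtOH. The changes against EtOH were -0.91 ± 0.32 with ABA+SA (adjusted p = 0.165), 0.28 ± 0.32 with ABA+JA (adjusted p = 0.671) and -0.35 ± 0.29 with ABA (adjusted p = 0.457). None passed the test. The difference between the times was not tested for the pairs.

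**Figure D2:**
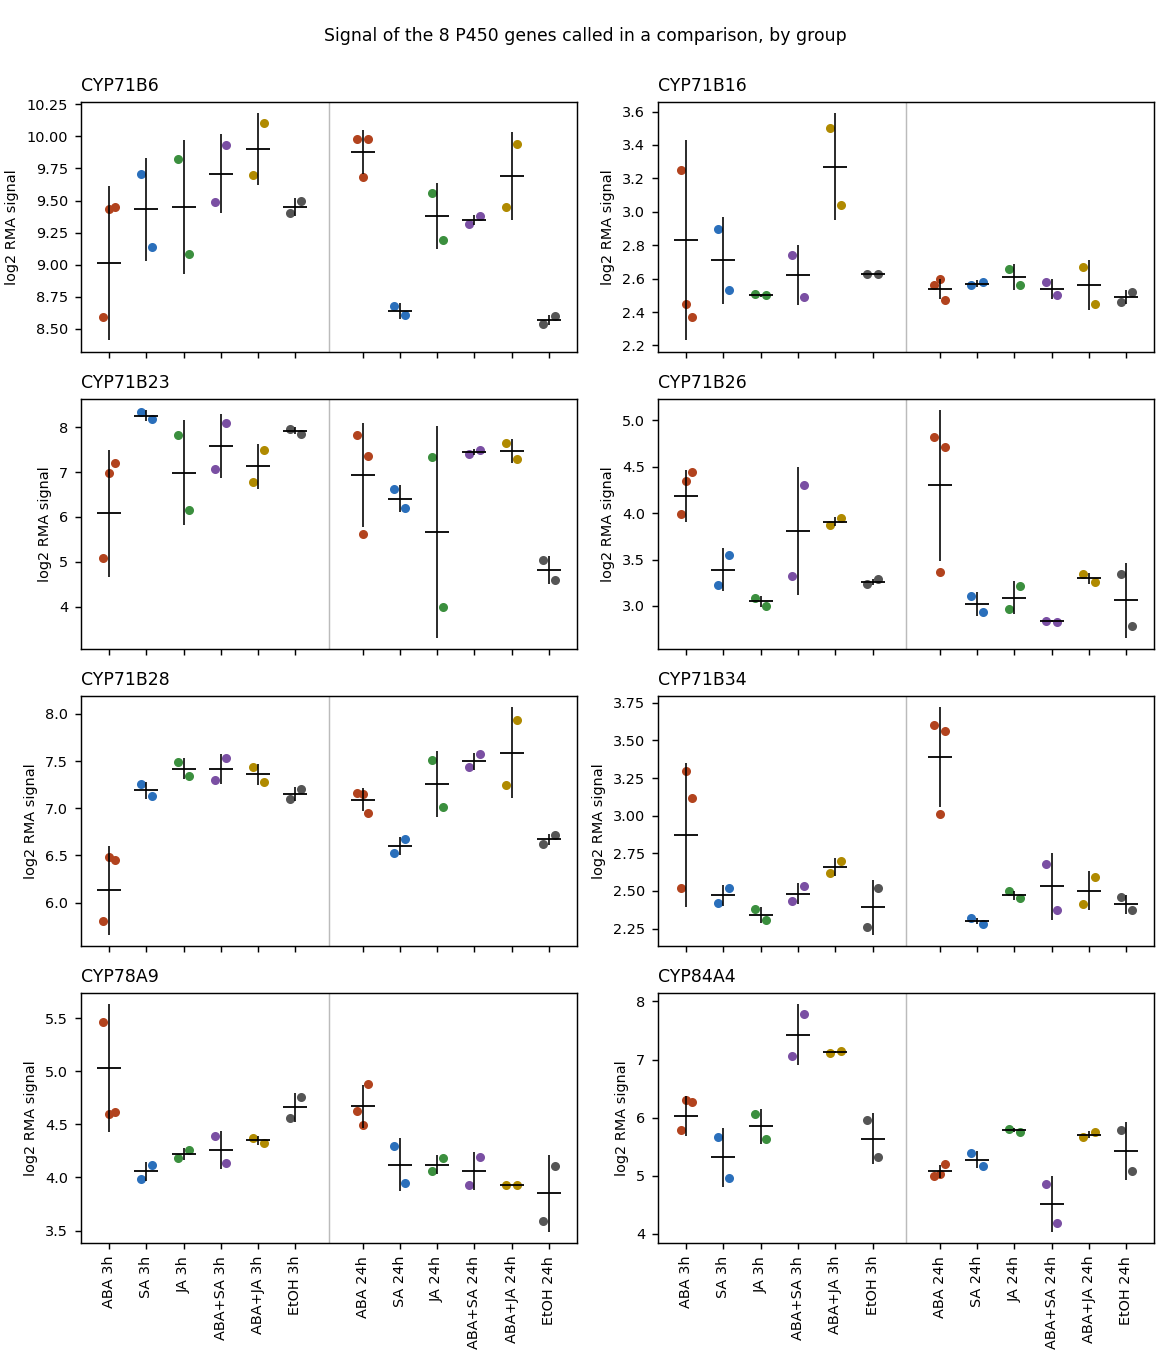
Log2 RMA signal of the 8 P450 genes called in a comparison, 1 panel a gene, with arrays at 3 h left of the grey line and at 24 h right of it. Points are arrays, horizontal bars group means and vertical lines ± SD between samples, with replicates 2 and 3 of ABA at 3 h counted as 1 and scales that differ between panels. The 4 combined arrays at 3 h read 7.06 to 7.79 for CYP84A4, and the 3 arrays of ABA at 24 h read 9.68 to 9.98 for CYP71B6.

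In limma the change with ABA against EtOH differed between the 2 times for CYP71B6 (AT2G24180) and CYP71B28 (AT1G13090). Both calls were lost without certain single arrays, named below. CYP71B6 acts on indole-acetonitrile in the making of indole-carboxylic acid, a defence compound. It read 9.98, 9.68 and 9.98 with ABA at 24 h, against 8.54 and 8.60 with EtOH, and rose by 1.31 ± 0.27 (SE; limma adjusted p = 0.0032). That call was kept with each array left out in turn, over changes of 1.26 to 1.41. At 3 h it read 8.59, 9.43 and 9.45 with ABA, against 9.40 and 9.50 with EtOH, groups that overlap (-0.44 ± 0.30, adjusted p = 0.356).

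The change of CYP71B6 with ABA was 1.75 ± 0.40 greater at 24 h than at 3 h (adjusted p = 0.0151), where 7.35% of all probe sets were called. This call was lost without EtOH replicate 2 at 3 h (adjusted p = 0.0579), EtOH replicate 1 at 24 h (0.0503) or ABA replicate 1 at 3 h (0.0763). The EtOH level itself was 8.57 ± 0.04 (SD, n = 2) at 24 h and 9.45 ± 0.07 (n = 2) at 3 h, a difference of -0.88 ± 0.30 (SE) without a call (adjusted p = 0.0713).

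With other hormones at 24 h, CYP71B6 read 9.45 and 9.94 with ABA+JA and rose by 1.12 ± 0.30 against EtOH (adjusted p = 0.0279). It read 9.56 and 9.19 with JA (0.81 ± 0.30, adjusted p = 0.143), 9.32 and 9.38 with ABA+SA (0.78 ± 0.30, adjusted p = 0.222), and 8.68 and 8.61 with SA (0.07 ± 0.30, adjusted p = 1). The SA arrays were the ones nearest to EtOH. The ABA+JA call was lost without EtOH replicate 1 or 2 (adjusted p = 0.131 and 0.111), without ABA+JA replicate 2 (0.18) and in a fit of only the groups compared (0.111). At 3 h CYP71B6 was 0.89 ± 0.30 higher with ABA+JA than with ABA alone (adjusted p = 0.0434), but only 0.46 (adjusted p = 0.405) without ABA replicate 1. That call was lost too without ABA+JA replicate 1 or 2 (adjusted p = 0.0624 and 0.234), with the grouping by source name (0.70, adjusted p = 0.12), the groups alone (0.209), quantile scaling (0.0605) or all 26 arrays entered separately (0.057).

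CYP71B28 fell with ABA alone at 3 h and not with the pairs. It read 5.80, 6.48 and 6.45 with ABA at 3 h, below both EtOH arrays at 7.10 and 7.20, and fell by 1.02 ± 0.24 (SE; limma adjusted p = 0.00907). The arrays titled ABA+SA read 7.30 and 7.53 and those titled ABA+JA 7.44 and 7.28, all above EtOH. It was 1.28 ± 0.24 higher with ABA+SA than with ABA alone (adjusted p = 0.00159) and 1.23 ± 0.24 higher with ABA+JA (adjusted p = 0.0015). Both of these calls were kept with each array left out in turn and with either grouping of the combined arrays, but not in a fit of only the groups compared (adjusted p = 0.0658 and 0.0678). The fall with ABA was lost without EtOH replicate 2 (adjusted p = 0.0652), in the fit of the groups alone (0.122), and without ABA replicate 1, where it was -0.68 (0.124).

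At 24 h CYP71B28 read 7.16, 7.15 and 6.95 with ABA, against 6.62 and 6.72 with EtOH (0.42 ± 0.22, adjusted p = 0.208). Its change with ABA was 1.43 ± 0.32 greater at 24 h than at 3 h (adjusted p = 0.0123), a call lost without EtOH replicate 2 at 3 h (0.0508) or ABA replicate 1 at 3 h (1.10, adjusted p = 0.0616). It rose by 0.92 ± 0.24 with ABA+JA at 24 h (7.25 and 7.94; adjusted p = 0.0233), a call lost without EtOH replicate 1 or 2 (0.126 and 0.0906), in the fit of the groups alone (0.206), and without ABA+JA replicate 2, where the change was 0.58 (0.218). With ABA+SA it read 7.44 and 7.57 (0.83 ± 0.24, adjusted p = 0.0602).

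CYP71B26 (AT3G26290) and CYP71B34 (AT3G26300), from the same stretch of chromosome 3, rose with ABA alone at 24 h. CYP71B34 was lower with both pairs than with ABA alone, and CYP71B26 with ABA+SA. CYP71B34 read 3.60, 3.01 and 3.56 with ABA at 24 h, against 2.46 and 2.37 with EtOH (0.98 ± 0.20 SE, limma adjusted p = 0.00285), a call kept with each array left out in turn. With a mean signal of 2.60, CYP71B34 lay below the lower quartile of 3.38, so the alternative without dim probe sets could not check this call. It read 2.68 and 2.37 with ABA+SA and 2.41 and 2.59 with ABA+JA, below all ABA arrays. The differences from ABA alone were -0.86 ± 0.20 (adjusted p = 0.0165) and -0.89 ± 0.20 (adjusted p = 0.0106), in comparisons that called 6.36% and 8.81% of all probe sets. The first was lost without ABA replicate 1 or 3 (adjusted p = 0.0613 and 0.0575) or ABA+SA replicate 2 (0.222), the second without ABA+JA replicate 1 (0.135), and both when fitted to the groups alone (0.122 and 0.126). The first was also lost with quantile scaling (0.0772).

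CYP71B26 read 4.82, 3.37 and 4.71 with ABA at 24 h, against 3.34 and 2.78 with EtOH, and rose by 1.24 ± 0.35 (adjusted p = 0.0199). Replicate 2 of ABA stood apart from the other ABA arrays, next to EtOH replicate 1. The call was lost without EtOH replicate 2 (adjusted p = 0.209), ABA replicate 1 (0.0855) or ABA replicate 3 (0.0753), with the groups alone (0.151) and with quantile scaling (0.0703). With ABA+SA it read 2.84 and 2.83, and was 1.46 lower than with ABA alone (-1.46 ± 0.35, adjusted p = 0.0188). That call was lost without ABA replicate 1 or 3 (0.0698 and 0.0677) or ABA+SA replicate 1 or 2 (0.0903 and 0.145), with the groups alone (0.152) and with quantile scaling (0.074). With ABA+JA it read 3.35 and 3.26 (-1.0 ± 0.35 against ABA, adjusted p = 0.0867).

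At 3 h both genes read higher with ABA without a call. CYP71B26 read 3.99, 4.35 and 4.44 with ABA, against 3.24 and 3.29 with EtOH (0.93 ± 0.38, adjusted p = 0.114). CYP71B34 read 2.52, 3.30 and 3.12, against 2.26 and 2.52 (0.48 ± 0.22, adjusted p = 0.16). The difference in ABA response between the times did not pass the test for CYP71B26 (0.31 ± 0.51, adjusted p = 0.804) or CYP71B34 (0.50 ± 0.30, adjusted p = 0.367). For SA and JA limma called no P450 gene in this difference, where 0.0615% and 0.317% of all probe sets were called. At an unadjusted p under 0.05 there was 1 P450 gene for each, beside 1.49% of all probe sets for SA and 12.6% for JA.

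CYP78A9 (AT3G61880), whose overexpression enlarges fruit and seeds, rose with ABA at 24 h by 0.82 ± 0.22 (SE; limma adjusted p = 0.0169). It read 4.63, 4.49 and 4.88 with ABA and 3.59 and 4.11 with EtOH. The call was lost without EtOH replicate 1 (0.56, adjusted p = 0.22) or ABA replicate 3 (0.0619), with the groups alone (0.0621) and with quantile scaling (0.0565). It was 0.73 lower with ABA+JA at 24 h than with ABA alone (-0.73 ± 0.22, adjusted p = 0.0483), a call lost without any 1 of the 5 arrays (0.0523 to 0.242) and with the groups alone (0.113), a trended robust prior (0.0629) or quantile scaling (0.097).

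At 3 h CYP78A9 read 4.39 and 4.14 with ABA+SA, against 5.46, 4.60 and 4.62 with ABA alone (-0.77 ± 0.24, adjusted p = 0.0348). ABA replicate 1 read apart from the other arrays of its group, and without it the difference was -0.35 (adjusted p = 0.48). The call was also lost without ABA+SA replicate 1 or 2 (adjusted p = 0.0729 and 0.203), with the groups alone (0.254), the grouping by source name (0.0524), quantile scaling (0.0512) or all 26 arrays entered separately (0.0575). In EtOH cells the values were 3.59 and 4.11 by 24 h, against 4.56 and 4.76 by 3 h, a change of -0.81 ± 0.24 (adjusted p = 0.0421) that was lost without any 1 of these 4 arrays (adjusted p = 0.057 to 0.311, with changes of -0.56 to -1.07). It was lost too with the groups alone (0.0957), a trended robust prior (0.0548) or quantile scaling (0.0868).

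CYP71B23 (AT3G26210) varied most among the members. In EtOH cells its signal was 5.03 and 4.59 by 24 h, against 7.97 and 7.86 by 3 h, and fell by 3.11 ± 0.89 (SE; limma adjusted p = 0.0351), in a comparison that called 10.3% of all probe sets, 3.52% lower. The groups lay far apart, but omitting any 1 of the 4 arrays ended the call (adjusted p = 0.105 to 0.177, with changes of -3.33 to -2.89).

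At 24 h CYP71B23 read above both EtOH arrays on all but 1 of the hormone-treated arrays. It read 7.83, 5.62 and 7.35 with ABA (2.13 ± 0.81, adjusted p = 0.0842), 7.40 and 7.50 with ABA+SA (2.64 ± 0.89, adjusted p = 0.138) and 7.66 and 7.29 with ABA+JA (2.66 ± 0.89, adjusted p = 0.0751). It read 6.63 and 6.20 with SA (1.61 ± 0.89, adjusted p = 1). JA gave 7.34 and 4.0, 1 array above and 1 below the EtOH arrays (0.86 ± 0.89, adjusted p = 0.635). None of these changes passed the test.

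The JA arrays also differed in their place along the change with time, at 0.0822 for the array that read 7.34 and 0.65 for the array that read 4.0. At 24 h the ABA+SA arrays lay at 0.635 and 0.72 and read 7.40 and 7.50. The SA arrays at 24 h, at 0.965 and 1.03 (their mean is set to 1), read 6.63 and 6.20. The EtOH arrays at 24 h, at 0.902 and 0.967, read 5.03 and 4.59. The part of this place in the signal was not tested. At 3 h CYP71B23 read 5.08, 6.97 and 7.20 with ABA, against 7.97 and 7.86 with EtOH (-1.84 ± 0.89, adjusted p = 0.182). The array at 5.08 lay at 0.574 on that axis, the others of its group at 0.457 and 0.46. The difference between the ABA responses at 24 h and 3 h was 3.96 ± 1.20 (adjusted p = 0.0566).

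**Figure D3:**
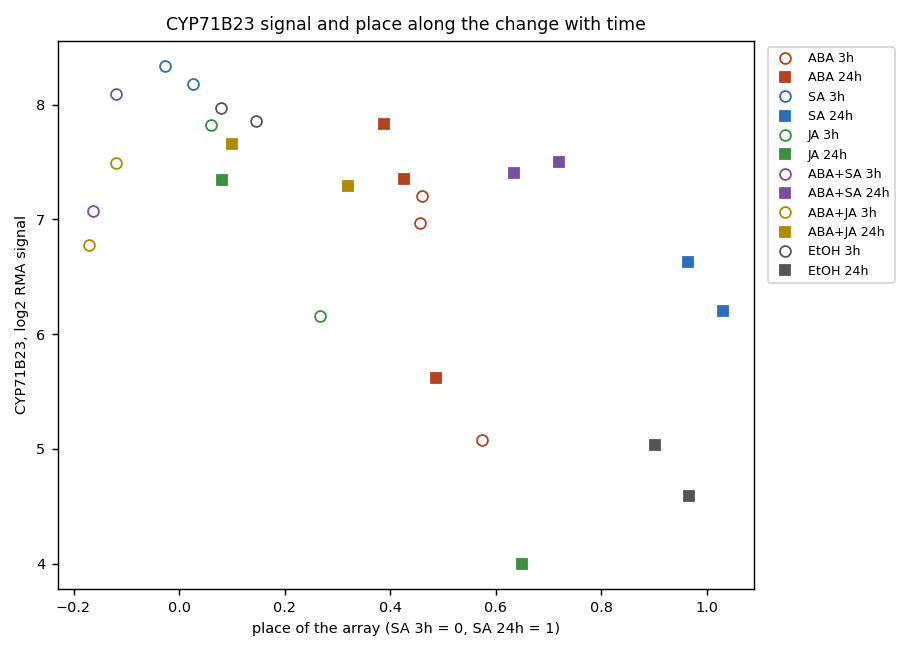
Log2 RMA signal of CYP71B23 (vertical axis) against the place of each of the 26 arrays along the change with time (horizontal axis, SA at 3 h = 0, SA at 24 h = 1). Open circles are arrays at 3 h and filled squares arrays at 24 h, coloured by treatment. The EtOH arrays at 24 h lie at the lower right (5.03 and 4.59), those at 3 h at the upper left (7.97 and 7.86), and replicate 1 of JA at 24 h lies among the 3 h arrays. The ABA+SA arrays at 24 h, at 0.635 and 0.72, read 7.40 and 7.50, and replicate 2 of JA at 24 h, at 0.65, read 4.0.

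CYP71B16 (AT3G26150) was called in 1 comparison, ABA+JA against JA alone at 3 h (0.77 ± 0.22 SE, limma adjusted p = 0.0225), where 20.3% of all probe sets were called. It read 3.50 and 3.04 with ABA+JA and 2.51 and 2.50 with JA, and 2.63 on both EtOH arrays (0.64 ± 0.22 for ABA+JA, adjusted p = 0.0503). ABA replicate 1 also read 3.25, while ABA replicates 2 and 3 read 2.45 and 2.37. The call was lost without ABA+JA replicate 1 (0.54, adjusted p = 0.21) or JA replicate 1 or 2 (0.0849 and 0.103), and with the groups alone (0.106). Grouped by source name, the difference was 0.11 (adjusted p = 0.844).

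SA and JA alone called no P450 gene against EtOH at either time in limma. Of all probe sets, SA called 0.136% at 3 h and 0.352% at 24 h, and JA called 0.343% and 4.01%, so no call among 23 genes is near the background. At an unadjusted p under 0.05, SA had 2 P450 genes at 3 h (3.26% of all probe sets) and 0 at 24 h (2.36%), and JA had 0 at 3 h (5.19%) and 3 at 24 h (19.7%). CYP78A9 read 3.99 and 4.12 with SA at 3 h, below EtOH at 4.56 and 4.76 (-0.60 ± 0.24, adjusted p = 1). CYP79A2 (AT5G05260), which makes phenylacetaldoxime from phenylalanine for benzylglucosinolate, read 3.17 and 3.25 with SA at 3 h, against 2.79 and 2.78 with EtOH (0.42 ± 0.18, adjusted p = 1). It read 3.32 and 3.24 with JA at 24 h, against 2.77 and 2.87 (0.46 ± 0.18, adjusted p = 0.16). In both cases its signal lay below the lower quartile of 3.38, and there was no call.

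Added to SA or JA, ABA called few members. ABA+SA against SA called CYP84A4 at 3 h (12.6% of all probe sets) and none at 24 h (2.46%). In the comparison at 24 h 3 P450 genes and 9.86% of all probe sets had an unadjusted p under 0.05. ABA+JA against JA called CYP84A4 and CYP71B16 at 3 h (20.3% of all probe sets) and none at 24 h (0% of the 22746 probe sets). For this pair at 24 h 0 P450 genes but 3.01% of all probe sets had an unadjusted p under 0.05. At 24 h CYP71B28 read 7.44 and 7.57 with ABA+SA and 6.53 and 6.67 with SA, without a call (0.90 ± 0.24, adjusted p = 0.0551). Against ABA alone at 3 h, ABA+SA called 3 genes and ABA+JA 3, where 18% and 21.5% of all probe sets were called. CYP71B28 and CYP84A4 were among the called genes in both.

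The 15 members called in no comparison were CYP51G2, CYP79A2 and 13 CYP71B genes. Their group means spanned 0.31 (CYP71B37) to 1.24 (CYP71B22), and their changes against EtOH lay between -0.59 and 0.71. CYP71B22 (AT3G26200) read 3.24 and 3.12 with ABA+SA at 24 h and 4.94 and 3.89 with SA at 3 h, its lowest and highest groups. With ABA+JA at 24 h it read 4.77 and 3.81, against 3.45 and 3.70 with EtOH (0.71 ± 0.40, adjusted p = 0.32). CYP51G2 and CYP71B27 are transcribed pseudogenes in RefSeq, the first a copy of the sterol demethylase gene, and no array read above 3.65 for CYP51G2 or 3.78 for CYP71B27.

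By gene order in RefSeq, 11 of the CYP71B members lie in one stretch of chromosome 3, 3 in another and 3 in a stretch of chromosome 1. In the stretch of 11, from CYP71B16 to CYP71B37, 4 genes were called in a comparison and 7 were not, against the 50.9% of all probe sets given above. Of the 11, CYP71B16, CYP71B21, CYP71B24, CYP71B25 and CYP71B34 to CYP71B37 had a mean signal below the lower quartile of 3.38. Among these, CYP71B16 and CYP71B34 were called. Of all probe sets below that level 18.7% were called. CYP71B22 and CYP71B23 have 0 genes between them, and between the EtOH times CYP71B22 differed by -0.72 ± 0.40 (adjusted p = 0.304) where CYP71B23 fell by 3.11. CYP71B34, CYP71B35, CYP71B36 and CYP71B37 follow each other directly, and with ABA at 24 h CYP71B34 alone of these 4 was called. On chromosome 1, CYP71B28, with a mean signal of 7.11, was called in 5 comparisons. Its neighbours CYP71B27 (3.29) and CYP71B29 (2.97), both below the same quartile, were called in none. CYP71B genes are similar in sequence, and whether a probe set also catches a neighbour's transcript was not tested.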

How the data were processed

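Transcripts of 26 samples were measured on single-channel oligonucleotide arrays. The deposited values are log2 signals made by the authors with RMA, per the submitters' processing notes, on a log2 scale judged by the span of the values, 1.77 to 13.91 (RMA version not given in the sources used here). Of 22746 probe sets, 13513 have 1 gene in the platform annotation, 503 several and 8730 none, and all 23 members matched a RefSeq gene (names and gene order only).

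Arrays were grouped by title, and replicates 2 and 3 of ABA at 3 h were averaged. limma 3.58.1 (R 4.3.3) fitted the 12 group means to all samples, with Benjamini-Hochberg adjustment across the whole table in each of 22 comparisons and calls at adjusted p under 0.05. Errors of changes are standard errors of that fit. The fit was tested on simulated data. Members, lists and comparisons were chosen with earlier results of these data known. Named genes are those called without overlap of the arrays compared, up to 5 in each direction against EtOH and 3 otherwise, which took in every called gene. Others, and single array values, were named after their values were seen. No sequence was used here. Alternatives are given in the closing section.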

Additional observations from a re-analysis of the deposited data

Results flagged for a closer look

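The ABA response of 2 P450 genes differed between 24 h and 3 h by a test of the difference itself in limma. For CYP71B6 the change with ABA was 1.75 log2 units greater at 24 h (adjusted p = 0.0151), from 1.31 at 24 h and -0.44 at 3 h. For CYP71B28 it was 1.43 greater (adjusted p = 0.0123), from 0.42 at 24 h and -1.02 at 3 h. With each of the 10 arrays concerned left out in turn, the differences ran from 1.32 to 1.85 and from 1.10 to 1.5, and the calls were kept 7 and 8 times. The EtOH arrays differed between the times in their place on the time axis (0.902 and 0.967 at 24 h, 0.0795 and 0.145 at 3 h), while the ABA arrays lay at 0.389 to 0.486 at 24 h and 0.457 to 0.574 at 3 h. The part of this in the differences was not tested.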

How the results depend on the processing

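No called change reversed its direction under any alternative run, and 6 of the 26 calls were kept with each array left out in turn. Counts of called P450 genes that moved by over 1.5 times were as follows. Fitted to the groups compared alone, ABA at 3 h called 0, ABA at 24 h 2, ABA+SA at 24 h 1 and ABA+JA at 24 h 1 against EtOH, the pairs called 0 against ABA at both times, and ABA+JA called 1 against JA at 3 h. A trended robust prior gave 3 for ABA+JA against EtOH at 3 h, 1 for ABA+JA against ABA at 24 h and 1 between the EtOH times. With probe sets under the lower quartile of mean signal left out, which removes 16 members, ABA+JA against JA at 3 h and both pairs against ABA at 24 h called 1 each. Quantile scaling gave 2 for ABA at 24 h, 1 for ABA+SA at 24 h against EtOH and 1 against SA, 0 for ABA+SA and 1 for ABA+JA against ABA at 24 h, and 1 between the EtOH times. The 26 arrays entered separately gave 2 for ABA at 3 h. At 2-fold or more, ABA at 24 h called 2, ABA+JA at 24 h 1 against EtOH and 0 against ABA, ABA+SA at 24 h 1 against ABA, ABA+JA at 3 h 1 against JA, and the EtOH times 1. Grouped by source name, ABA+SA called 2 against SA and ABA+JA 1 against JA at 3 h. With the first replicates of JA and ABA+JA at 24 h both omitted, an alternative chosen after seeing the data, ABA+JA called 0 against ABA. The causes were not tested.

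With a replicate block, ABA+JA at 3 h called 2 and ABA at 24 h called 2 against EtOH, and ABA+SA called 0 and ABA+JA 1 against ABA at 24 h. The block ended 6 calls, those of CYP71B26 (adjusted p = 0.0793) and CYP78A9 (0.0654) with ABA at 24 h, of CYP71B26 (0.0704) and CYP71B34 (0.0616) for ABA+SA against ABA at 24 h, and of CYP78A9 for ABA+JA against ABA at 24 h (0.149) and CYP71B6 for the same pair at 3 h (0.056). Differences between replicates 1 and 2 correlated between groups at -0.338 to 0.699 over 66 pairs of groups (median 0.0919, 32 above 0.1), and at -0.243 to 0.699 over the 30 pairs of the same time (median 0.261, 21 above 0.1). Since not every pair was above 0.1 and no label names a shared culture or day, the numbers were not taken as pairs. Whether same-numbered arrays of a time share a source was not tested.

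Leaving out each array in turn, the counts against EtOH ran from 0 to 1 for ABA, 1 to 1 for ABA+SA and 1 to 2 for ABA+JA at 3 h, and from 2 to 5 for ABA and 0 to 2 for ABA+JA at 24 h. Against ABA they ran from 1 to 3 (ABA+SA) and 1 to 4 (ABA+JA) at 3 h and 0 to 2 for both at 24 h. They ran from 0 to 3 for ABA+JA against JA at 3 h, 0 to 3 for the ABA difference between times, and 0 to 0 between the EtOH times.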
